A study of Mus musculus with 6 samples.

Results

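The genes examined here encode the subunits of the 3 nuclear RNA polymerases. They were chosen by symbol: every gene whose symbol begins with Polr1, Polr2 or Polr3 and which has a probe set that the array's annotation pairs with that symbol alone, represented by the brightest such probe set. This gave 27 genes (5 Polr1, 13 Polr2 and 9 Polr3 symbols) among 19938 genes with a probe set of their own. RNA was taken from whole thymus of 10-day-old mice and hybridised to Affymetrix mouse gene arrays. The 3 RUNX2/MYC arrays (genotype CD2-Myc/CD2-Runx2 on a C57BL6/CBA background) carried a Myc and a Runx2 transgene, both driven by control elements of the CD2 gene, which direct expression to lymphoid cells. The 3 wild-type (WT) arrays were of C57/CBA mice of the same age with neither transgene, and the methods describe littermate-matched controls. The labels call the 3 arrays of each group biological replicates. The transgenic mice go on to develop thymic lymphoma, and at this age the tissue is premalignant and known to hold an enlarged population of abnormal T cells.

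RNA polymerase I (Pol I) works in the nucleolus and makes the precursor of the large ribosomal RNAs. RNA polymerase II (Pol II) makes messenger RNAs, and RNA polymerase III (Pol III) makes transfer RNAs and other short RNAs. Each enzyme has its own catalytic pair of large subunits and its own peripheral subunits, Pol I and Pol III have a pair of assembly subunits in common, and a set of small subunits is built into all 3 enzymes. MYC is known as a driver of cell growth that can raise the output of all 3 polymerases. The symbols follow history rather than membership, so the genes are grouped below by the enzymes that contain their products: Pol I only (3 genes), Pol I and III (2), Pol II only (8), all 3 enzymes (5) and Pol III only (9).

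The Runx2 label was borne out on every array, while the Myc label could not be checked. Runx2, on a probe set that only the study's gene table names, had log2 signals of 11.73, 11.78 and 11.96 on the RUNX2/MYC arrays, against 7.94, 7.94 and 7.93 on the WT arrays. The mouse Myc probe set read 10.51, 10.88 and 10.55 in RUNX2/MYC thymus, against 11.00, 11.26 and 11.12 in WT thymus, lower on all 3 RUNX2/MYC arrays (log2 fold change -0.48, limma adjusted p = 0.119), and it need not read the transgene. Array medians lay between 7.31 and 7.49. Thymocyte markers were bright on every array, with a summed log2 signal of 15.59 to 15.80 in RUNX2/MYC thymus, against 15.78 to 15.88 in WT thymus, over 14 of 15 listed genes. Within that list 4 genes had separate groups downwards, Cd4 (log2 fold change -0.74), Rag1 (-0.62), Rag2 (-0.55) and Dntt (-0.52), and Cd3d was separate upwards (0.32), each at an unadjusted p under 0.05 and none past the adjusted threshold in limma. Markers of thymic epithelium were dimmer in RUNX2/MYC thymus, with a summed log2 signal of 13.94 to 14.12 against 14.39 to 14.51 in WT thymus, all 13 with a negative log2 fold change, and adipocyte markers were high on RUNX2/MYC replicate 2 alone (mean log2 signal 8.41, and 7.14 to 7.51 on the other 5 arrays). All 7 B cell markers, all 8 fibroblast markers and 11 of 13 myeloid and dendritic markers had a negative log2 fold change. Of 9 listed erythroid markers 4 were measured. Alas2 (log2 fold change 1.17) and Slc4a1 (0.64) had separate groups upwards, while Klf1 (-0.09) and Epb42 (-0.05) had overlapping groups. Among all genes 11.2% were separated downwards and 15.5% upwards, and 40.2% had a positive log2 fold change. Separate groups downwards were seen for 9 of 13 thymic epithelial, 3 of 7 B cell, 3 of 8 fibroblast and 5 of 13 myeloid and dendritic markers. Upwards they were seen for 2 of 12 adipocyte markers. No gene of these marker lists was called by limma. The gene-by-gene test with q values that the methods name called 3 of the 13 thymic epithelial markers lower and no other marker. Of all 35556 probe sets it called 247 lower. In whole thymus a change in the share of a cell type and a change in RNA per cell cannot be told apart, and the part of these cell types in the results below was not tested.

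Among the subunits of the RNA polymerases 24 of 27 genes had a higher mean signal in RUNX2/MYC thymus, as did 40.2% of all genes, although the sign of Polr2h, Polr2k, Polr2m or Polr3gl turned under another scaling. The class median was largest for the 3 Polr1 genes of subunits found in Pol I alone. Of the 27 genes, 7 rose and none fell at an adjusted p under 0.05 in limma, which fits a linear model to each probe set and shares information on the spread between them (p-values adjusted by the method of Benjamini and Hochberg for 35556 probe sets). Among all 19938 genes 2.27% were called higher and 0.0953% lower, and among all probe sets 1.68% and 0.127%. Brighter genes were called more often: 4.98% were called higher among genes at or above the median signal of the polymerase genes, and 4.19% among the 9875 genes within their range of mean signal (7.52 to 11.37). The genes that rose were Polr1a, Polr1b, Polr1e, Polr1c, Polr2f, Polr3e and Polr3d. The number of calls depended on single arrays, over all probe sets as among these genes. Leaving out replicate 2 or 3 of the RUNX2/MYC arrays, or replicate 1 or 2 of the WT arrays, brought it to 0. Of all 35556 probe sets 3 or 4 were then called. Without RUNX2/MYC replicate 1, 8 genes were called (872 of all probe sets higher), and without WT replicate 3, 5 were (540 higher). Over the 6 fits the log2 fold change of Polr1b, the largest of the 7, ran from 0.93 to 1.02. That of Polr3d, the smallest, ran from 0.49 to 0.59. Centring on the 75th percentile of every array left 2 calls, Polr1a and Polr1b, and quantile normalization and cyclic loess gave 6 calls each. At an unadjusted p under 0.05, 20 of the 27 were higher, against 13.2% of all genes, and 0 were lower. The gene-by-gene test with q values that the methods name called 8 higher, against 4.11% of all genes, and 0 lower. For 19 genes all 3 RUNX2/MYC arrays lay above all 3 WT arrays, and for none was the reverse seen. Among all genes 15.5% were separated upwards and 11.2% downwards, and among those in the same range of signal 27.4% were separated upwards. The median log2 fold change was 0.40 over the 27 genes, -0.07 over all genes and 0.10 over genes in the same range of signal. The shares of 40.2%, 13.2% and 4.11% are over all genes, dim ones included, and were not taken within that range.

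**Figure D1:**
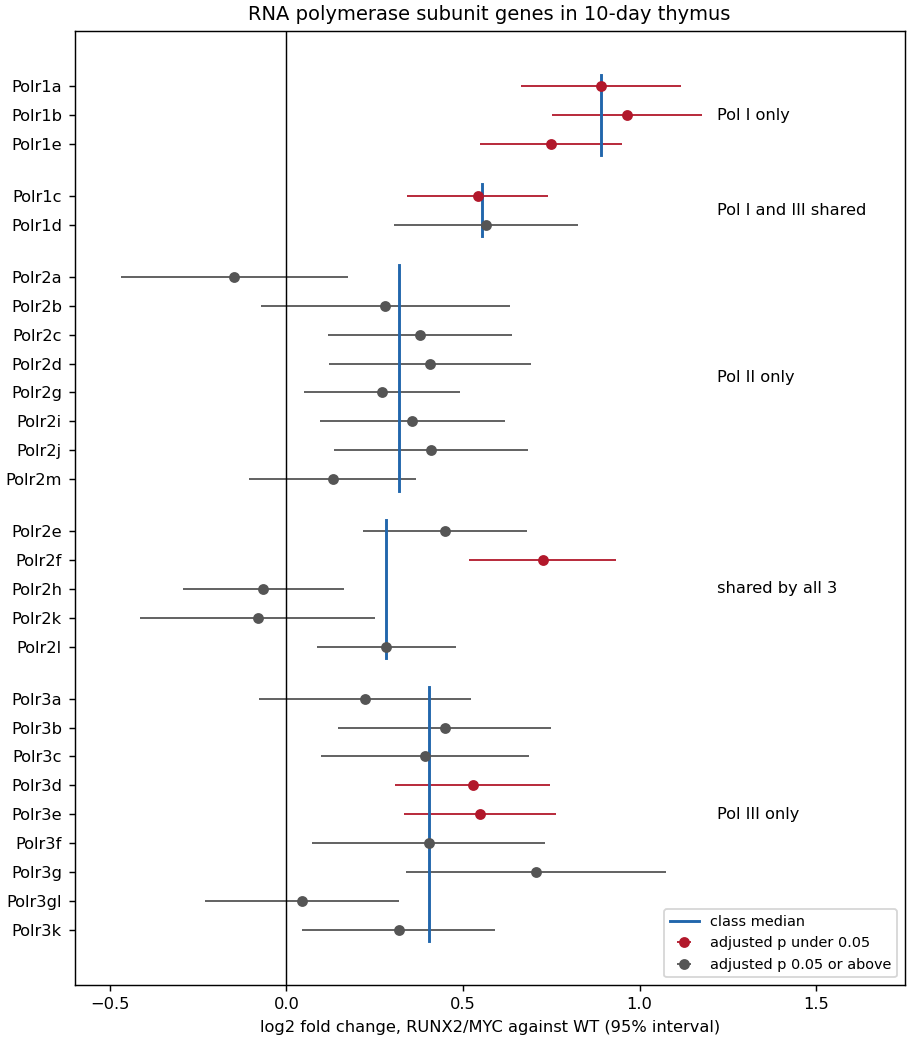
Log2 fold change between RUNX2/MYC and WT thymus for the 27 RNA polymerase subunit genes, grouped by the enzymes that contain them, with 95% intervals from limma (3 arrays a group). Red points have an adjusted p under 0.05 and blue lines are class medians. These run from 0.28 for subunits of all 3 enzymes to 0.89 for the 3 Polr1 genes of Pol I alone.

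All 3 genes with Polr1 symbols of subunits particular to Pol I rose, each by over 1.6-fold. Polr1b, the second largest subunit, which forms the active centre together with the largest one, had log2 signals of 10.28, 10.26 and 10.35 on the RUNX2/MYC arrays, against 9.26, 9.29 and 9.44 on the WT arrays. Its lowest RUNX2/MYC array was well above its highest WT array, and the difference of 0.97 log2 units (SE 0.09, limma adjusted p = 0.014), or 1.95-fold, was the largest of the 27. SE is the standard error of the log2 fold change. Polr1a, the catalytic subunit, had log2 signals of 9.51, 9.47 and 9.64 in RUNX2/MYC thymus, against 8.74, 8.54 and 8.67 in WT thymus, a difference of 0.89 log2 units (SE 0.096, limma adjusted p = 0.0157). Polr1e, which encodes the PAF53 protein of the initiation-competent enzyme, had 9.24, 9.32 and 9.24 in RUNX2/MYC thymus, against 8.60, 8.51 and 8.45 in WT thymus. It differed by 0.75 log2 units (SE 0.085, limma adjusted p = 0.0159). As with Polr1a and Polr1b, the arrays of the groups were far apart compared with the spread within either.

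The annotation holds a further 3 Pol I subunits under other symbols, which the selection by symbol did not take in, and none of them passed (2 of 4 such subunits, Crcp of Pol III included, were higher at an unadjusted p under 0.05, and 0 were called by the test with q values). Twistnb, which encodes the partner of the initiation factor RRN3 in the Pol I stalk, had log2 signals of 8.87, 9.34 and 9.01 on the RUNX2/MYC arrays, against 8.46, 8.52 and 8.86 on the WT arrays (log2 fold change 0.46, limma adjusted p = 0.186). The highest WT array nearly reached the lowest RUNX2/MYC array. Cd3eap, which encodes the partner of PAF53, had 7.79, 7.44 and 7.48 in RUNX2/MYC thymus, against 7.72, 7.43 and 7.42 in WT thymus, with replicate 1 high in both groups and a log2 fold change of 0.04 (limma adjusted p = 0.845). Znrd1, which encodes a small subunit involved in RNA cleavage, had 9.74, 10.22 and 9.99 in RUNX2/MYC thymus, against 10.09, 9.85 and 9.88 in WT thymus, with overlapping groups (log2 fold change 0.04, limma adjusted p = 0.856). With these 3 genes added, 3 of 6 genes of Pol I alone rose and their median log2 fold change was 0.60.

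The assembly subunits that Pol I and Pol III have in common lay next in order. Polr1c rose, with log2 signals of 10.33, 10.44 and 10.27 in RUNX2/MYC thymus, against 9.79, 9.82 and 9.80 in WT thymus, a difference of 0.54 log2 units (SE 0.085, limma adjusted p = 0.0337). Its WT arrays spread by 0.0124 log2 units (SD, n = 3). The call of Polr1c was lost under quantile normalization (limma adjusted p = 0.0513), cyclic loess (0.07) and 75th percentile centring (0.107). Its partner Polr1d had 9.43, 9.58 and 9.34 in RUNX2/MYC thymus, against 8.81, 8.81 and 9.04 in WT thymus. The groups of Polr1d did not overlap and the log2 fold change was as large (0.57), but WT replicate 3 lay above the other WT arrays and the gene did not pass the test (SE 0.11, limma adjusted p = 0.0579).

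Among subunits of Pol III alone, 2 of 9 genes rose, and all 9 had a positive log2 fold change (median 0.40). Both genes that rose encode subunits that form a dimer at the periphery of the enzyme and act in initiation and termination. Polr3e had log2 signals of 8.83, 8.90 and 8.90 on the RUNX2/MYC arrays, against 8.32, 8.23 and 8.44 on the WT arrays, a difference of 0.55 log2 units (SE 0.091, limma adjusted p = 0.0397). That call holds for its brighter probe set, and the dimmer one had a log2 fold change of -0.06 (limma adjusted p = 0.763). Polr3d had 8.12, 8.16 and 8.24 in RUNX2/MYC thymus, against 7.77, 7.57 and 7.61 in WT thymus, a difference of 0.53 log2 units (SE 0.093, limma adjusted p = 0.0455), and the groups of both genes were separate.

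The largest value among Pol III genes was that of Polr3g, which did not pass. Polr3g and Polr3gl encode alternative forms of one subunit, Polr3g being the form associated with stem cells and proliferating cells and Polr3gl the form found widely in differentiated tissue. Polr3g had log2 signals of 7.66, 8.11 and 7.92 in RUNX2/MYC thymus, against 7.20, 6.97 and 7.40 in WT thymus, with separate groups but a wide spread within each (log2 fold change 0.71, SE 0.16, limma adjusted p = 0.0789). Polr3gl had 8.05, 8.22 and 8.42 in RUNX2/MYC thymus, against 8.16, 8.13 and 8.28 in WT thymus, and the groups overlapped (log2 fold change 0.04, 95% interval -0.23 to 0.32). The difference of the log2 fold changes of the 2 forms, Polr3g minus Polr3gl, was 0.66 (SE 0.14). The pair was singled out after its values were seen, so this difference is given without a test.

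The remaining Pol III genes had smaller values. Polr3b, the second largest subunit, had log2 signals of 9.22, 9.42 and 9.49 in RUNX2/MYC thymus, against 8.75, 8.91 and 9.13 in WT thymus (log2 fold change 0.45, limma adjusted p = 0.132). The catalytic subunit gene Polr3a had 9.20, 9.32 and 9.34 in RUNX2/MYC thymus, against 8.85, 9.05 and 9.28 in WT thymus, so that WT replicate 3 lay among the RUNX2/MYC arrays (log2 fold change 0.22, 95% interval -0.08 to 0.52). Polr3c and Polr3f, of the subcomplex that helps to open the promoter, had log2 fold changes of 0.39 and 0.40, and Polr3k, a small subunit active in RNA cleavage, of 0.32, with limma adjusted p of 0.163, 0.184 and 0.195. The groups were separate for Polr3c and Polr3k and overlapped for Polr3f. Crcp, which encodes a further Pol III subunit under another symbol, had 8.53, 8.95 and 8.64 in RUNX2/MYC thymus, against 8.41, 8.26 and 8.30 in WT thymus (log2 fold change 0.38, limma adjusted p = 0.173).

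No gene of Pol II alone passed the test in either direction by limma, and none did by the test with q values, although 5 of the 8 were higher at an unadjusted p under 0.05. Their median log2 fold change was 0.32 and the groups were separate upwards for 5 of them. Polr2a, the catalytic subunit with the long repeated tail that is phosphorylated during transcription, had the lowest log2 fold change of the 27 genes. Its log2 signals were 11.13, 11.24 and 11.28 on the RUNX2/MYC arrays, against 11.11, 11.38 and 11.60 on the WT arrays, so that the WT arrays alone spanned more than the whole RUNX2/MYC group (log2 fold change -0.15, 95% interval -0.47 to 0.17, limma adjusted p = 0.507). Polr2b, the second largest subunit, had 9.79, 9.97 and 9.98 in RUNX2/MYC thymus, against 9.34, 9.69 and 9.88 in WT thymus, and the groups overlapped (0.28, 95% interval -0.07 to 0.63).

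The smaller Pol II subunits were closer to one another. Polr2j, one partner of the assembly pair of Pol II, had log2 signals of 11.28, 11.17 and 10.98 in RUNX2/MYC thymus, against 10.89, 10.64 and 10.68 in WT thymus (log2 fold change 0.41, limma adjusted p = 0.132). Its partner Polr2c differed by 0.38 log2 units (limma adjusted p = 0.14). The stalk subunits Polr2d and Polr2g had log2 fold changes of 0.41 and 0.27, and Polr2i, which acts in fidelity and RNA cleavage, of 0.36, with limma adjusted p of 0.145, 0.182 and 0.157. These 5 genes were all separated upwards between the groups. Polr2m, which encodes a protein that associates with Pol II and controls its response to the Mediator complex rather than a core subunit, had a log2 fold change of 0.13 (95% interval -0.11 to 0.37) and overlapping groups.

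Of the 5 subunits built into all 3 enzymes, only Polr2f rose. It had log2 signals of 11.81, 11.71 and 11.69 on the RUNX2/MYC arrays, against 11.10, 10.95 and 10.98 on the WT arrays, a difference of 0.72 log2 units (SE 0.088, limma adjusted p = 0.0187), or 1.65-fold. Polr2e, a subunit that contacts incoming DNA, had 9.89, 10.02 and 9.83 in RUNX2/MYC thymus, against 9.58, 9.36 and 9.45 in WT thymus, with separate groups (0.45, limma adjusted p = 0.0781). Polr2l, a small zinc-binding subunit needed for assembly, had 10.98, 11.01 and 10.87 in RUNX2/MYC thymus, against 10.68, 10.69 and 10.64 in WT thymus (0.28, limma adjusted p = 0.143). It was called higher by the test with q values.

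For the other two, Polr2h and Polr2k, the groups overlapped and the log2 fold changes were -0.07 (95% interval -0.29 to 0.16) and -0.08 (95% interval -0.41 to 0.25). Polr2k is a small zinc-binding subunit, and its own probe set was among the dimmer ones of the 27, with log2 signals of 7.45, 7.54 and 7.43 in RUNX2/MYC thymus, against 7.78, 7.62 and 7.27 in WT thymus. A brighter probe set that the annotation pairs with Polr2k and with a second locus differed by 0.19 log2 units (limma adjusted p = 0.369). The subunits common to all 3 enzymes thus ranged from -0.08 to 0.72, a wider range than that of the 8 genes of Pol II alone (-0.15 to 0.41).

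**Figure D2:**
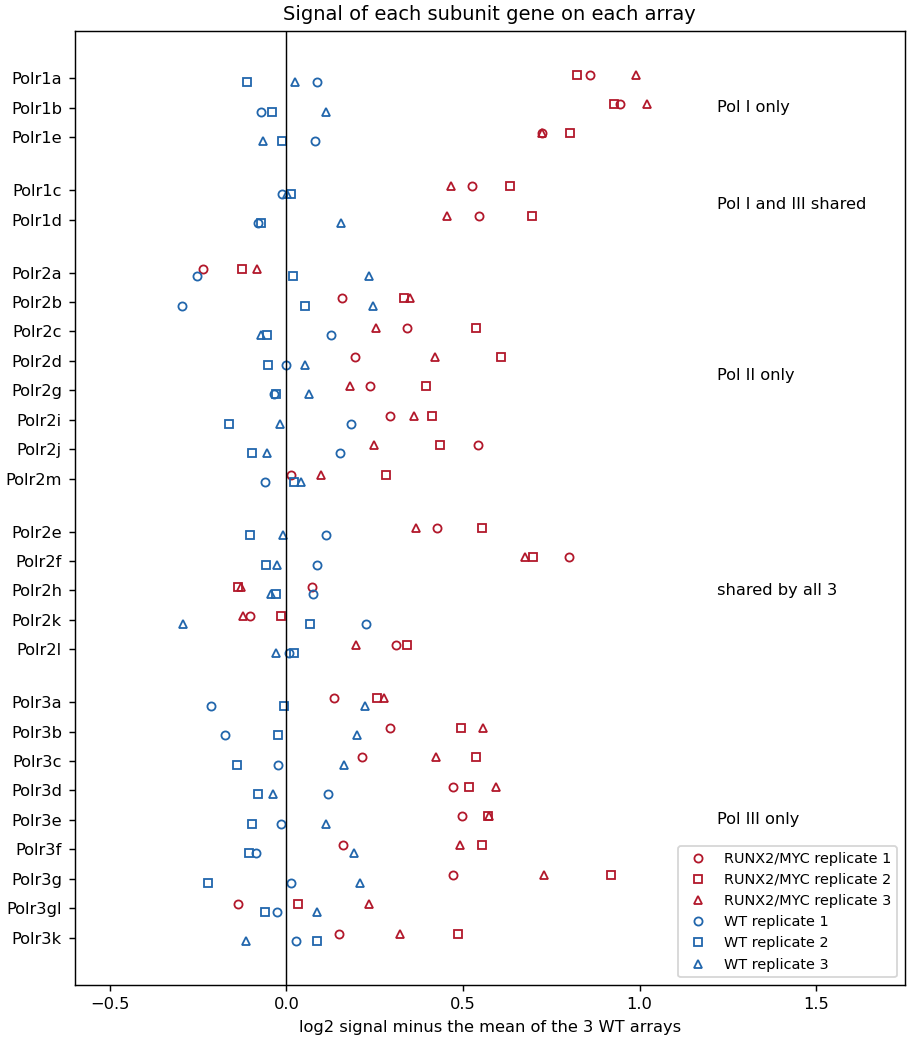
Log2 signal of each of the 27 genes on each array, less the mean of its 3 WT arrays, with RUNX2/MYC arrays in red, WT arrays in blue and a marker for each replicate number. The groups are separate for 19 genes, by the widest margins for Polr1a, Polr1b, Polr1e and Polr2f, and the WT arrays spread most for Polr2b, Polr2k and Polr2a.

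The classes were set side by side array by array. Less the mean of the WT arrays, the mean log2 signal of the 3 Pol I genes was 0.84, 0.85 and 0.91 on RUNX2/MYC replicates 1 to 3, against 0.03, -0.06 and 0.02 on WT replicates 1 to 3. The 8 Pol II genes gave 0.19, 0.36 and 0.23 on the RUNX2/MYC arrays, against -0.02, -0.04 and 0.06 on the WT arrays. The 9 Pol III genes gave 0.25, 0.49 and 0.47 in RUNX2/MYC thymus, against -0.04, -0.07 and 0.11 in WT thymus. The order of the classes was thus not the same on all arrays: on RUNX2/MYC replicate 1 the subunits of all 3 enzymes (0.30) lay above those of Pol III alone (0.25), whereas Pol I alone came first on each of the 3 RUNX2/MYC arrays. With Twistnb, Znrd1 and Cd3eap included, the mean of the Pol I genes was 0.47, 0.58 and 0.52 on the RUNX2/MYC arrays, against 0.05, -0.08 and 0.03 on the WT arrays. The common subunits of Pol I and III then lay above it on RUNX2/MYC replicates 1 and 2 (0.54 and 0.66) and below it on replicate 3 (0.46). Members of a class are not replicates, and these class values carry no test.

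**Figure D3:**
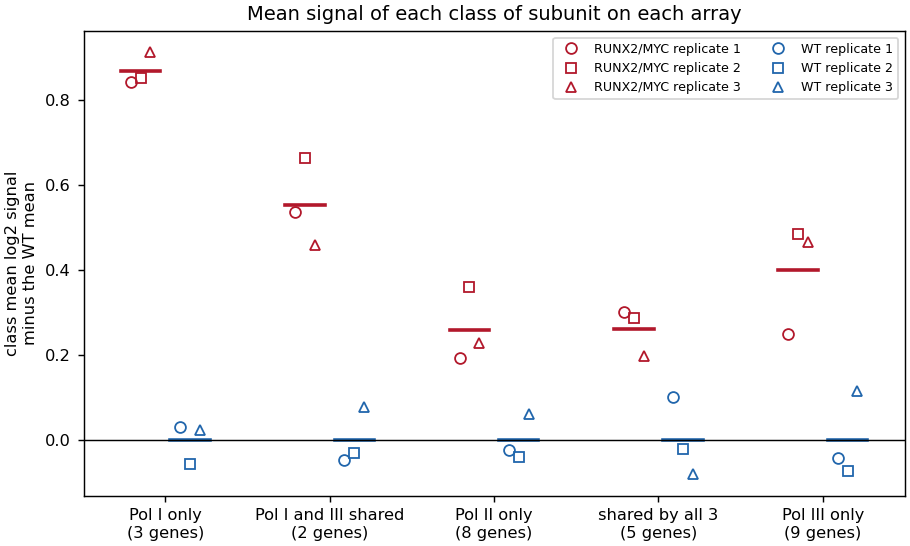
Mean log2 signal of each class of subunit on each array, less the class mean of the 3 WT arrays. Points are arrays, with RUNX2/MYC in red and WT in blue, and bars are group means. Pol I alone, as its 3 Polr1 genes (0.84 to 0.91 on the RUNX2/MYC arrays), lies above the other classes. Twistnb, Znrd1 and Cd3eap are not included.

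A direct comparison was possible for the large subunits, which correspond to one another between the enzymes. Of 6 such comparisons made on the difference of the log2 signals within each array, the RUNX2/MYC and WT arrays were separate in all 6. The log2 fold change of Polr1a exceeded that of Polr2a by 1.04 (SE 0.18) and that of Polr3a by 0.67 (SE 0.16), and that of Polr3a exceeded that of Polr2a by 0.37 (SE 0.021). The log2 fold change of Polr1b exceeded that of Polr2b by 0.69 (SE 0.13) and that of Polr3b by 0.52 (SE 0.089), and that of Polr3b exceeded that of Polr2b by 0.17 (SE 0.065). Each had p = 0.1 by the exact permutation test (two-sided, n = 3 a group), which is the smallest value that 3 arrays against 3 allow, and p = 0.1 after adjustment over the 6. On the WT arrays Polr3a and Polr2a were both lowest on replicate 1 and highest on replicate 3.

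In WT thymus replicate 3 was the highest array for 14 of the 27 genes, replicate 1 for 10 and replicate 2 for 3, while the lowest was replicate 2 for 12 genes, replicate 1 for 9 and replicate 3 for 6. The genes highest on WT replicate 3 included the large subunits Polr2a, Polr2b, Polr3a and Polr3b, all lowest on replicate 1, and 7 of the 9 genes of Pol III alone, of which Polr3a and Polr3b were lowest on replicate 1 and the other 5 on replicate 2. In RUNX2/MYC thymus replicate 1 was the lowest array for 15 genes, all 9 of Pol III alone included, and replicate 2 the highest for 15. RUNX2/MYC replicate 2 is the array on which the adipocyte markers were high. The 75th percentile of all log2 signals was 8.92, 9.04 and 9.01 on RUNX2/MYC replicates 1 to 3, and 8.85, 8.87 and 8.97 on WT replicates 1 to 3. The medians were 7.44, 7.31 and 7.37, and 7.49, 7.47 and 7.41. The part of the adipocyte signal or of these array-wide values in the order of the arrays was not tested. The 10 genes highest on WT replicate 1 were Polr2e, Polr2f, Polr2h and Polr2k of the subunits of all 3 enzymes, Polr1a and Polr1e of Pol I, Polr2c, Polr2i and Polr2j of Pol II, and Polr3d of Pol III.

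For 5 genes the annotation gives 2 probe sets of their own, and for a pair of them the reading depended on which was used. The brighter probe set of Polr2h, which encodes a further subunit of all 3 enzymes, had log2 signals of 9.24, 9.03 and 9.04 in RUNX2/MYC thymus, against 9.24, 9.14 and 9.12 in WT thymus, while the dimmer one had 9.12, 8.99 and 9.08 in RUNX2/MYC thymus, against 8.67, 8.69 and 8.86 in WT thymus. The log2 fold change was accordingly -0.07 on the brighter and 0.32 on the dimmer probe set (limma adjusted p = 0.138), with separate groups on the second alone. Polr3e was called on its brighter probe set, and on the dimmer one it had 8.53, 8.18 and 8.46 in RUNX2/MYC thymus, against 8.46, 8.51 and 8.38 in WT thymus. The probe sets of Polr1d (0.57 and 0.52), Polr2c (0.38 and 0.41) and Polr2l (0.28 and 0.30) gave like values. Whether a probe set also reads a near-identical copy of its gene elsewhere in the genome was not tested.

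**Figure D4:**
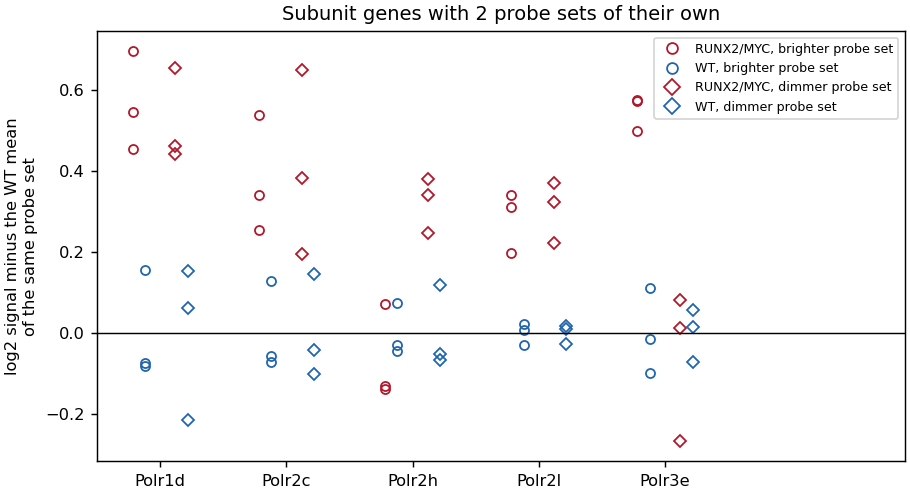
Log2 signal on each array, less the WT mean of the same probe set, for the 5 genes with 2 probe sets of their own. Circles are the brighter and diamonds the dimmer probe set, with RUNX2/MYC in red and WT in blue, and the probe sets differ for Polr2h (-0.07 and 0.32) and Polr3e (0.55 and -0.06) but not in direction for Polr1d, Polr2c and Polr2l.

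Factors that work with the polymerases were examined by lists, to be read beside the 2.27% of all genes that were called higher (4.19% in the signal range of the subunits) and the 13.2% that were higher at an unadjusted p under 0.05. Of 12 measured Pol I factors 1 rose, Taf1d, a component of the promoter selectivity factor, with log2 signals of 12.48, 12.42 and 12.62 in RUNX2/MYC thymus, against 11.72, 11.65 and 11.72 in WT thymus (log2 fold change 0.81, limma adjusted p = 0.0159). Of 32 general factors of Pol II 3 rose: Taf4b, a variant component of the factor that recognises core promoters (1.06, limma adjusted p = 0.023), Gtf2f2 of the factor TFIIF (0.52, limma adjusted p = 0.0494) and Gtf2h3 of the factor TFIIH (0.49, limma adjusted p = 0.0351). Of 16 Pol III factors 1 rose, the zinc finger protein gene Gtf3a, with 10.17, 10.30 and 10.02 in RUNX2/MYC thymus, against 9.60, 9.39 and 9.50 in WT thymus (0.66, limma adjusted p = 0.0378). Of 14 factors for polymerase assembly Ruvbl1 rose (0.47, limma adjusted p = 0.0455). None of 23 elongation factors of Pol II and none of 8 genes of mitochondrial transcription passed in limma, with 4 and 7 of them higher at an unadjusted p under 0.05 and 1 of each called by the test with q values. At an unadjusted p under 0.05, 3 of 12 Pol I factors, 12 of 32 general factors, 7 of 16 Pol III factors and 10 of 14 assembly factors were higher. The test with q values called 1, 4, 1 and 3 of them higher, against 4.11% of all genes. No gene of these lists was called lower. The median log2 fold change was 0.15 for Pol I factors, and 0.21 for general factors and 0.16 for elongation factors of Pol II. It was 0.27 for Pol III factors, 0.38 for assembly factors and 0.40 for mitochondrial transcription. Over all genes the median was -0.07, and over genes in the signal range of the subunits it was 0.10. The median was 0.40 over the 27 subunits and 0.89 over the 3 Polr1 genes of Pol I alone (0.60 with Twistnb, Znrd1 and Cd3eap).

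The promoters of the Polr1 genes of Pol I alone are shown because all 3 rose, and sites with E-box letters because MYC is one of the transgenes. RefSeq windows on the GRCm38.p6 build, 250 bases before to 50 after the annotated start, were found for 22 of the 27 genes. They were searched on both strands for the letters CACGTG, the E-box to which MYC binds as a dimer with MAX, and for TGTGGT or TGCGGT, the core of RUNX binding sites. These genes have 24 windows, since Polr2h and Polr2m have 2 each. The E-box letters occurred in 4 of the 24 windows, of 4 genes (Polr2h, Polr3c, Polr3e and Polr3gl), and in 7.15% of all 32851 windows. The RUNX letters occurred in 7 of the 24, of 7 genes, and in 22.4% of all windows. Of 6 genes that rose and have a window, 1 held the E-box letters and 2 the RUNX letters. The windows of Polr1a, Polr1b and Polr1e, the Polr1 genes of Pol I alone, held no E-box letters. Their 250 bases before the start follow, read on the gene's strand, with the RUNX letters of Polr1e in capitals. They lie at chr6:71908803-71909052, chr2:129100746-129100995 and chr4:45018359-45018608, all on the plus strand.
Polr1a: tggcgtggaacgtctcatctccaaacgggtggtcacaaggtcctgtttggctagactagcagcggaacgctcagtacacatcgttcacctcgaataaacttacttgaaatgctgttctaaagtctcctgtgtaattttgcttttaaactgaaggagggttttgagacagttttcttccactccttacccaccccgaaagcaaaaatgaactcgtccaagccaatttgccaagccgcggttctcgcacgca
Polr1b: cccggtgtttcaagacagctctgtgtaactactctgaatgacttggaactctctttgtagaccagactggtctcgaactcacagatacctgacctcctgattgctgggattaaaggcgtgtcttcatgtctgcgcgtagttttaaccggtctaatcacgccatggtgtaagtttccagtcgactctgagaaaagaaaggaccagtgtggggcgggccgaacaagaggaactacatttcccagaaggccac
Polr1e: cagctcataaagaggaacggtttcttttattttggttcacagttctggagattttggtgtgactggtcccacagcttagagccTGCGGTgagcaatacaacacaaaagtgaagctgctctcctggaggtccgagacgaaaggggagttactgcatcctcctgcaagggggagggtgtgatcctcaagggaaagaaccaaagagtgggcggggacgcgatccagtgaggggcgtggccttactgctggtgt

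The E-box letters of the other genes, in capitals with the bases around them, stood at different distances from the start. On the brightest probe sets only Polr3e among them was called, and Polr3gl and Polr2h were among the genes with the lowest log2 fold changes. On their dimmer probe sets Polr3e had -0.06 and Polr2h 0.32, so for both the reading depended on the probe set. The first base of the motif lies at 6 bases after the start in Polr3e (chr7:120917771-120917800, plus strand), at -194 in Polr3gl (chr3:96594358-96594387, minus strand), at -237 in Polr3c (chr3:96727659-96727688, minus strand) and at 24 after the start in Polr2h (chr16:20717837-20717866, plus strand). For Polr2h the start is the more upstream of its 2 annotated ones, and the window of the other held no E-box letters.
Polr3e: ccccgctcccccCACGTGtccggcggagtt
Polr3gl: ttctggctccgcCACGTGtctggatgagct
Polr3c: gcccgcaagggtCACGTGagtccgcccggc
Polr2h: cttacttttctcCACGTGagggggtgcgcg

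The window of Polr3e also overlaps a transfer RNA gene, n-TLaag4 (chr7:120917517-120917598), a template of Pol III. Of all 32851 windows 10 overlap an annotated transfer RNA gene. Motif matches are letters in a window and no measure of binding, and no match says only that the letters are not in that window.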

How the data were processed

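The authors deposited 1 log2 signal for each of 35556 probe sets on each of 6 arrays (MoGene-1). RMA and Affymetrix Expression Console 1.4 appear in the submitters' processing notes. The methods also name RMA, with an adjustment for GC content, and Partek for the analysis. RMA pulls low signals together, so fold changes of dim genes are understated, and normalizing between arrays removes any change common to all genes. The deposited log2 signals were used unchanged. RUNX2/MYC (3 arrays) was compared with WT (3 arrays) in limma 3.58.1 under R 4.3.3, with p-values adjusted for all probe sets (Benjamini-Hochberg), and a gene was called at an adjusted p under 0.05. The gene-by-gene test with q values of the methods was an alternative. The annotation pairs 21789 probe sets with 1 symbol, 1621 with several and 12146 with none, and the brightest probe set of a gene was used. The script was tested on simulated data. Every subunit gene is named, and of the other lists the genes that passed, at most 3 each. The subunits and lists were chosen with earlier results of these data known. The number of arrays limits the precision. Tissue and cell type lists were used only as a check. Alternatives covered scaling, dim probe sets, array weights, the test, the choice of probe set, a replicate block and leaving out each array.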

Additional observations from a re-analysis of the deposited data

How the results depend on the processing

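Every class median was positive in every setting, and the number of calls depended on which array was left out, on the scaling and on the test. Pol I alone, as its Polr1 genes, had the largest class median in all 20 settings, the deposited one included. Twistnb, Znrd1 and Cd3eap were not part of that comparison. The 7 calls became 2 under 75th percentile centring (Polr1a and Polr1b), 3 by the gene-by-gene test of the methods with Benjamini-Hochberg adjustment and 23 with array weights, a fit that did not converge fully. The calls over the whole array moved too. Of all 35556 probe sets 596 were called higher in the main fit, and 209, 162 and 9165 in these settings. With array weights 12137 were also called lower. No subunit gene was called lower in any setting. Leaving out an array gave 0 to 8 calls. It gave 0 when either RUNX2/MYC replicate 2 or 3 was left out or either WT replicate 1 or 2 (3 or 4 of all probe sets were then called). It gave 5 without WT replicate 3 (540 of all probe sets higher), and 8 without RUNX2/MYC replicate 1 (872 higher). The class medians then ran from 0.83 to 0.93 for Pol I alone, from 0.50 to 0.60 for Pol I and III, from 0.27 to 0.34 for Pol II alone, from 0.25 to 0.33 for all 3 enzymes and from 0.33 to 0.52 for Pol III alone. Under median centring the medians of Pol I alone, Pol II alone and all 3 enzymes were 0.97, 0.40 and 0.37. For Pol I alone, Pol I and III, Pol II alone and all 3 enzymes they were 0.79, 0.46, 0.22 and 0.19 under 75th percentile centring, 0.80, 0.45, 0.22 and 0.17 under quantile normalization, and 0.77, 0.41, 0.18 and 0.14 under cyclic loess. With array weights Pol I alone had 1.04 and Pol III alone 0.56. Signs turned for genes near 0: Polr2h (0.019) and Polr2k (0.0032) under median centring, Polr3gl under 75th percentile centring (-0.053), Polr2m (-0.021) and Polr2k (0.0035) under cyclic loess, Polr3gl without RUNX2/MYC replicate 3 (-0.052, and up to 0.13 without another array) and Polr2k without WT replicate 1 (0.031, and down to -0.23 without another array). With the mean of its probe sets Polr2h had 0.13, and with the dimmest probe set Polr2h had 0.32 and Polr3e -0.057. The cause of these changes was not tested. Whether the replicate numbers of the labels pair the arrays was not settled. Same-numbered arrays had correlated deviations of 0.50, -0.15 and 0.61, and differently numbered ones ran from -0.63 to 0.37. With the replicate block 10 genes were called higher, Polr1d, Polr3b and Polr3g being the additional ones. Of all probe sets 1654 were then called higher and 763 lower, against 596 and 45 without the block.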
